A study of Mus musculus with 12 samples.

Results

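The 38 genes described here are the stress-response gene set centred on NRF2, taken as the rows of a mouse count table whose gene name equals one of 38 listed symbols, of 56748 genes in all. They hold the transcription factor NRF2 (Nfe2l2) and its inhibitor KEAP1, the enzymes of glutathione and thioredoxin chemistry, the pentose phosphate enzymes, the glutathione transferases and 3 efflux pumps, and were sorted into 7 classes by function. Poly-A RNA of 12 samples in 4 groups of 3 was sequenced. The siABHD6 hepatocytes were primary mouse hepatocytes with an siRNA knockdown of ABHD6, a serine hydrolase that acts on monoacylglycerols, and the siScramble hepatocytes received a scrambled control siRNA. The ABHD6 OE livers came from C57BL/6 mice that received ABHD6 through a tail vein dose of the vector AAV8-TBG-ABHD6, in which the TBG promoter directs expression to hepatocytes, and the GFP livers came from control animals labelled WT. All 6 livers were taken after 8 weeks on a diet with 60% of calories from fat. The cultures are labelled as receiving no treatment, and the diet and strain of the mice they came from, the age and sex of all animals and the time between transfection and harvest are not given in the sources used here. The labels number the replicates as biological, without saying whether the cultures came from separate animals, so the p-values speak to the variation among these samples alone, and that variation may be technical.

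In unstressed cells KEAP1 holds NRF2 in the cytoplasm and directs its degradation. Electrophiles and oxidants modify KEAP1, and NRF2 then enters the nucleus, pairs with a small MAF protein and binds the antioxidant response element, a short DNA motif near genes that make glutathione, recycle thioredoxin, supply NADPH, conjugate electrophiles and export the conjugates. The liver is the main organ of glutathione synthesis and of conjugation, and many of these genes also answer to other liver regulators, so a change in them does not name the regulator.

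The antioxidant response element was searched for as TGACNNNGC on both strands (GCNNNGTCA when it lies on the other strand) in the RefSeq promoter windows of build GRCm38.p6, which run from 250 bases before to 50 bases after each start site. Of the 38 members, 32 had a promoter entry, and 12 of these 32 (37.5%) held the motif in at least 1 window. Gclc, Gsr, Hmox1, Gsta4, Gstt2 and Abcc3 had no entry and were not searched. Among genes tested in any comparison 16.8% held it, and among all genes with an entry 14.0%. By window, 31.7% of the members' 41 windows held it, and 12.4% of all 32851. The motif lay upstream of the start site in 10 members. Stretches of 7 of them are printed here, with the motif in capitals and 20 bases on either side. Nfe2l2, which was higher with the ABHD6 siRNA, Abcc4 and Ugdh also held it upstream and are not printed. The first 4 belong to members that were higher, or in the case of Abcc2 lower, with the ABHD6 siRNA. Gclm did not pass in that comparison, and Gsta3 and Mgst1 are transferases that were much lower in culture than in liver. The coordinates, in the same order, are chr4:116685446-116685494 (plus strand), chr10:82859094-82859142 (plus strand, 1 of 3 windows of Txnrd1), chrX:74428909-74428957 (minus strand), chr19:43782190-43782238 (plus strand), chr3:122245403-122245451 (plus strand), chr1:21240444-21240492 (plus strand) and chr6:138140451-138140499 (plus strand, 1 of 2 windows of Mgst1).
Prdx1: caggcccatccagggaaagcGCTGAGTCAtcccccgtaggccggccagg
Txnrd1: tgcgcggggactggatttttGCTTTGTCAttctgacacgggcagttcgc
G6pdx: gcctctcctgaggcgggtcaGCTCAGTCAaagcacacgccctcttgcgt
Abcc2: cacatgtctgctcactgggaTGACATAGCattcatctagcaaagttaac
Gclm: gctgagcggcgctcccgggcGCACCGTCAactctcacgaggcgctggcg
Gsta3: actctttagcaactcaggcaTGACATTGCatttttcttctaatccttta
Mgst1: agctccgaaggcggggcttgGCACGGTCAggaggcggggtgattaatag
The motif reads TGACTCAGC in Prdx1, 133 bases before the start site, and TGACTGAGC in G6pdx, 57 bases before it, both on the strand opposite to the gene. Among members with an entry, the motif stood upstream of some that were higher, some that were lower and some that were not called. Whether its share differed between these was not tested. Gclc and Hmox1, the members with the largest rises with the ABHD6 siRNA, had no entry and are not covered by the search. A match is a description of the sequence and not a measured binding site.

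Libraries held 12295733 to 16234658 counts. Levels below are CPM, counts scaled to a common library size, with the sizes corrected over all 12 libraries by TMM, a trimmed mean of M-values, and levels of different genes are compared only as CPM per kilobase of the gene length in the table. Abhd6 stood at 3.78, 4.06 and 3.87 CPM in siABHD6 hepatocytes, against 27.9, 25.7 and 25.7 CPM in siScramble hepatocytes, and at 241, 136 and 201 CPM in ABHD6 OE livers, against 57.2, 51.1 and 32.2 CPM in GFP livers. The biological coefficient of variation in edgeR was 4.93% between the cultures and 28.1% between the livers. The summed hepatocyte markers (7 genes) were 13900 to 14400 CPM of the library total in siABHD6 and 14100 to 14300 in siScramble hepatocytes, against 61500 to 103000 in ABHD6 OE and 76500 to 106000 in GFP livers. The 7 Kupffer cell and macrophage markers summed to 66.0 to 85.2 CPM in siABHD6 and 80.3 to 87.1 CPM in siScramble hepatocytes, and to 152 to 359 CPM in ABHD6 OE and 185 to 297 CPM in GFP livers. In the cultures most of this sum was Cd68, at 788 to 1209 counts in siABHD6 and 978 to 1175 in siScramble hepatocytes. Cd68 had 54 to 188 counts in ABHD6 OE and 80 to 159 in GFP livers. Every other marker of this list was lower in the cultures, such as Clec4f, at 0 to 4 counts there and 761 to 1464 in the livers. The 6 stellate cell markers reached at most 6.98 CPM in cultures, with 1 of the 6 at 0 in all siABHD6 libraries, and 197 to 388 CPM in ABHD6 OE and 101 to 371 CPM in GFP livers. Livers ABHD6 OE 1 and GFP 3 stood apart from the other 4. Saa1, an acute phase gene named after its values were seen, was at 2413, 114 and 41.2 CPM in ABHD6 OE livers 1, 2 and 3 and at 79.2, 42.9 and 8040 CPM in GFP livers 1, 2 and 3, and the members named in the liver comparison are also given without these 2 libraries.

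In hepatocytes with the ABHD6 siRNA, the gene for the catalytic subunit of glutathione synthesis rose most, and NRF2 itself, peroxiredoxin 1, heme oxygenase 1, thioredoxin reductase 1, glutathione reductase, NQO1 and the first enzyme of the pentose phosphate pathway rose with it. RNA of microsomal epoxide hydrolase, transaldolase, glutathione transferase pi and both conjugate pumps MRP2 and MRP3 fell. Leaving out some single libraries lost the calls of thioredoxin reductase 1, glutathione reductase, NQO1 and MRP2. DESeq2 did not call NQO1 or glutathione transferase pi, and a single fit over all 12 libraries called no member. All 38 members passed the filter on low counts, and 15 (39.5%) passed edgeR's quasi-likelihood test at an adjusted p under 0.05, 10 higher and 5 lower, where 15.4% of the 13449 genes tested passed, 7.81% higher and 7.61% lower. In 17 members the groups did not overlap, 13 with siABHD6 above and 4 with siABHD6 below, as in 31.1% of genes tested, and 18 had an unadjusted p under 0.05, as did 27.0% of genes tested. The median log2 fold change was 0.03 over the members and -0.0024 over all genes tested. The members' median level was 190.0 CPM and that of all genes tested was 19.2 CPM, and the part of level in the share called was not tested.

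Of the 2 regulators, Nfe2l2 (mm39 chromosome 2, 75505857 to 75534985, minus strand) rose and Keap1 did not pass. Nfe2l2 stood at 369.8, 381 and 379.6 CPM in siABHD6 hepatocytes, against 329, 318 and 330.3 CPM in siScramble hepatocytes. Every siABHD6 culture lay above every siScramble culture, and the log2 fold change was 0.19 (SE 0.03, edgeR adjusted p = 0.000448). Keap1 stood at 51.4, 53.0 and 53.3 CPM in siABHD6 hepatocytes, against 49.8, 50.1 and 53.2 CPM in siScramble hepatocytes, and these groups overlapped (log2 fold change 0.03, SE 0.05, edgeR adjusted p = 0.765).

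In glutathione synthesis and recycling 2 of 4 genes rose and none fell. Gclc (mm39 chromosome 9, 77661817 to 77701767, plus strand) encodes the catalytic subunit of glutamate-cysteine ligase, the rate-limiting enzyme of glutathione synthesis. It stood at 1761, 1495 and 1509 CPM in siABHD6 hepatocytes, against 1007, 995 and 1020.3 CPM in siScramble hepatocytes, a log2 fold change of 0.64 (SE 0.04, edgeR adjusted p = 5.43e-09). The lowest siABHD6 culture lay well above the highest siScramble culture. Gclm, which encodes the modifier subunit of the same enzyme, stood at 229, 221 and 235 CPM in siABHD6 hepatocytes, against 221, 220.1 and 225 CPM in siScramble hepatocytes, and did not pass (0.03, SE 0.04, edgeR adjusted p = 0.714). The 2 subunits thus differed in this comparison, with the catalytic subunit at 1.56 times the control level and the modifier subunit at 1.02 times, though the difference between them was not tested. Gsr, which encodes the reductase that returns oxidised glutathione to its reduced form, rose by 0.16 (SE 0.04, edgeR adjusted p = 0.0142). Gss, which adds glycine in the last step of synthesis, did not pass (-0.06, SE 0.04).

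Among the 7 genes of thioredoxin, peroxide and heme defence 3 rose and none fell. Hmox1, which opens the heme ring, stood at 169, 153 and 150.2 CPM in siABHD6 hepatocytes, against 111, 119.6 and 118 CPM in siScramble hepatocytes. Its groups were well separated, with a log2 fold change of 0.43 (SE 0.05, edgeR adjusted p = 2.48e-06). The peroxidase gene Prdx1 rose by 0.19 (SE 0.03, edgeR adjusted p = 7.79e-05) and Txnrd1, which reduces thioredoxin, by 0.14 (SE 0.04, edgeR adjusted p = 0.0161). Srxn1, which repairs overoxidised peroxiredoxins, did not pass (0.01, SE 0.05), and neither did Gpx1 (0.08, SE 0.04) or catalase, Cat (-0.09, SE 0.03, edgeR adjusted p = 0.0636). Gpx2, the gastrointestinal glutathione peroxidase, had 15 to 25 counts per siABHD6 library and 13 to 28 per siScramble library and overlaps Fntb on the opposite strand.

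Of the 5 genes of quinone, epoxide and carbonyl metabolism 1 rose and 1 fell. Nqo1, a quinone reductase gene widely used as a readout of NRF2, stood at 20.1, 18.8 and 17.9 CPM in siABHD6 hepatocytes, against 13.9, 15.8 and 15.9 CPM in siScramble hepatocytes. The groups did not overlap, and the log2 fold change was 0.30 (SE 0.09, edgeR adjusted p = 0.0240). Ephx1 (mm39 chromosome 1, 180803775 to 180848469, minus strand), the microsomal epoxide hydrolase gene, stood at 572, 551 and 565 CPM in siABHD6 hepatocytes, against 773, 775 and 793 CPM in siScramble hepatocytes. This was the clearest decrease of the set, by 0.49 on the log2 scale (SE 0.03, edgeR adjusted p = 2.12e-09), and it ran opposite to Gclc and Nqo1. Ugdh, which makes the UDP-glucuronate used in glucuronidation (-0.00, SE 0.04), and the carbonyl reductase genes Cbr1 (0.02, SE 0.05) and Cbr3 (0.11, SE 0.08) did not pass.

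The 4 pentose phosphate genes, which serve NADPH supply, were split. G6pdx, the entry enzyme of the pathway, stood at 51.0, 54.8 and 53.3 CPM in siABHD6 hepatocytes, against 45.4, 42.7 and 43.8 CPM in siScramble hepatocytes, and rose by 0.26 (SE 0.05, edgeR adjusted p = 0.00146). It overlaps Ikbkg on the opposite strand, the strand used in counting is not given in the sources used here, and Ikbkg itself was at -0.03 (SE 0.04) in this comparison. Taldo1, transaldolase of the non-oxidative branch, stood at 174, 177 and 173 CPM in siABHD6 hepatocytes, against 199, 206 and 212 CPM in siScramble hepatocytes, and fell by 0.25 on the log2 scale (SE 0.04, edgeR adjusted p = 6.79e-05). Both genes had groups that did not overlap, and the oxidative enzyme Pgd (-0.00, SE 0.04) and transketolase, Tkt (-0.01, SE 0.04), did not pass.

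Of 13 glutathione transferases, 2 rose, 1 fell and 10 did not pass. Gstm4, a mu-class enzyme, stood at 35.2, 33.3 and 31.8 CPM in siABHD6 hepatocytes, against 25.2, 27.1 and 25.8 CPM in siScramble hepatocytes, a log2 fold change of 0.34 (SE 0.06, edgeR adjusted p = 0.000774). Gsta1, an alpha-class enzyme, rose by 0.18 (SE 0.05, edgeR adjusted p = 0.0268), and shares 82.9% of its 50-base words with its near copy Gm3776 in GENCODE M21 transcripts, so its counts are uncertain. Gstp1, the pi-class enzyme, stood at 866, 849 and 966 CPM in siABHD6 hepatocytes, against 960.3, 1027 and 1004 CPM in siScramble hepatocytes, and fell by 0.17 on the log2 scale (SE 0.04, edgeR adjusted p = 0.00700) with groups that overlapped. It shares 51.0% of its words with Gstp2. The other 10, which did not pass, lay between -0.07 (Gstt1, SE 0.05) and 0.19 (Gsta2, SE 0.07), and Gstm1, the most abundant member per kilobase in culture, was at 0.12 (SE 0.04, edgeR adjusted p = 0.0506). Gsta2 shares 47.4% of its words with other genes, 32.9% with Gsta1, so its counts are uncertain as well.

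Of the 3 efflux pumps 2 fell. Abcc3, which encodes MRP3 of the basolateral membrane, stood at 285, 282 and 282 CPM in siABHD6 hepatocytes, against 309.5, 313 and 331 CPM in siScramble hepatocytes, a log2 fold change of -0.18 (SE 0.04, edgeR adjusted p = 0.00144). Abcc2, which encodes MRP2 of the canalicular membrane, was at -0.16 (SE 0.04, edgeR adjusted p = 0.0189). Abcc4, which encodes MRP4, did not pass (0.12, SE 0.08, edgeR adjusted p = 0.382).

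Some of these calls changed with the libraries used. When edgeR was fitted once to the 12 libraries together, livers included, 0 of the 38 members and 41 genes in all passed, with Gclc at 0.66 (adjusted p = 0.828) and Ephx1 at -0.47 (adjusted p = 0.967). Without siABHD6 hepatocyte 1 the count was 6 higher and 6 lower, since the calls of Gsr, Txnrd1, Nqo1 and Gsta1 were lost (edgeR adjusted p = 0.0968, 0.0958, 0.102 and 0.184) and Cat passed (0.0106). Without siScramble hepatocyte 1 it was 6 higher and 4 lower and without siScramble hepatocyte 2 it was 7 higher and 4 lower, where Gsr, Txnrd1, Gsta1 and Abcc2 were lost both times and Nqo1 without siScramble hepatocyte 1 (edgeR adjusted p = 0.0502 to 0.118). Abcc2 also lost its call without siScramble hepatocyte 3, siABHD6 hepatocyte 2 or siABHD6 hepatocyte 3 (edgeR adjusted p = 0.0744, 0.0544 and 0.0943). DESeq2 called 9 higher and 5 lower, without Nqo1 (adjusted p = 0.0954) and Gstp1 (adjusted p = 0.0867) and with Cat. It called 5.34% of the 26190 genes with a p-value. These were taken without edgeR's filter on low counts, and DESeq2's own default filter at the adjustment was left on. That share is therefore not comparable with edgeR's 15.4% of 13449 filtered genes.

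**Figure D1:**
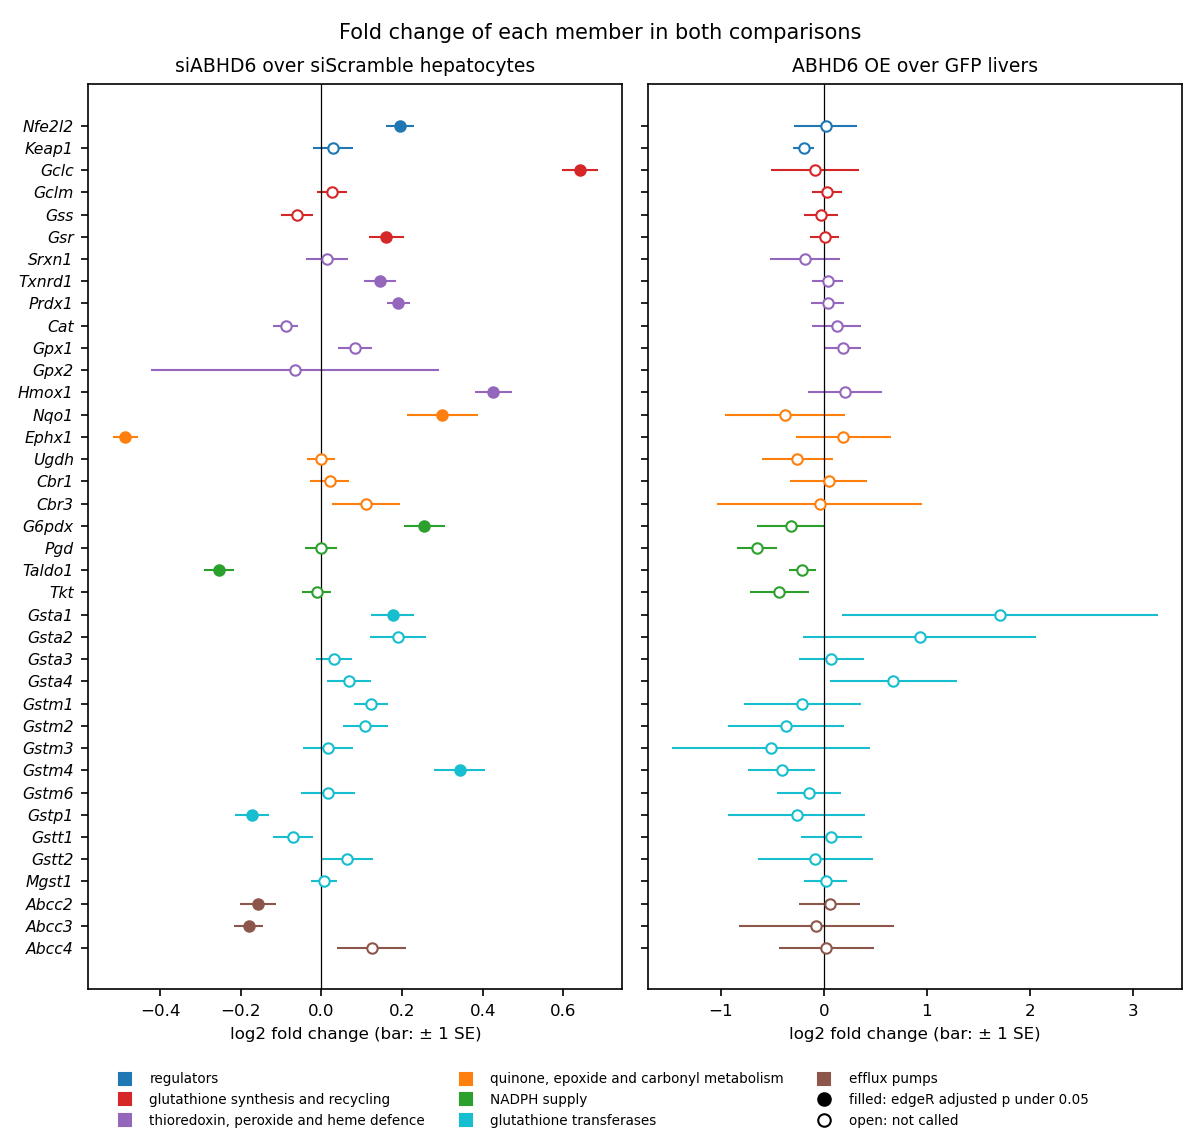
Log2 fold change (x axis) of each member (y axis) with bars of 1 SE, for siABHD6 over siScramble hepatocytes on the left and ABHD6 OE over GFP livers on the right, on different x scales. Filled points passed edgeR's test at an adjusted p under 0.05. Of the cultures' 38 points 15 are filled, from Gclc at 0.64 to Ephx1 at -0.49, and of the livers' 37 none is, with Gpx2 not tested there.

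Of a list of 75 other genes of the pathway, 68 were tested in hepatocytes, and 12 rose and 7 fell (27.9%, median log2 fold change 0.02). Of all genes tested 15.4% passed, and the part of level in this share was not tested either. The 4 largest decreases were of Cth, Chac1, Slc7a11 and Slc3a2. Cth, which makes cysteine from cystathionine, was at 22.6 ± 2.32 CPM in siABHD6 and 32.1 ± 1.14 CPM in siScramble hepatocytes (SD, n = 3 each), a log2 fold change of -0.52 (SE 0.07, edgeR adjusted p = 4.26e-05). Chac1, which degrades glutathione, was at -0.48 (SE 0.12, edgeR adjusted p = 0.00969), and Slc7a11 and Slc3a2, the light and heavy chains of the cystine importer, were at -0.41 (SE 0.05, edgeR adjusted p = 2.69e-05) and -0.39 (SE 0.04, edgeR adjusted p = 3.38e-07). The 4 largest increases were of Gstp2 (0.83, SE 0.20, edgeR adjusted p = 0.00767), the hydroxysteroid dehydrogenase gene Akr1c14 (0.34, SE 0.04, edgeR adjusted p = 2.45e-05), the ferritin light chain gene Ftl1 (0.33, SE 0.03, edgeR adjusted p = 1.91e-07) and Osgin1 (0.32, SE 0.03, edgeR adjusted p = 2.48e-06). Gstp2 was at 32.9, 14.0 and 17.9 CPM in siABHD6 hepatocytes, against 12.03, 12.4 and 11.4 CPM in siScramble hepatocytes, and its fold change was 0.39 (edgeR adjusted p = 0.0301) without siABHD6 hepatocyte 1.

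In livers with ABHD6 overexpression no member passed. Neither did the overexpressed gene, Abhd6, at a log2 fold change of 2.04 (SE 0.28, edgeR unadjusted p = 0.00015, adjusted p = 1.00) with groups that did not overlap, so a lack of calls here does not show a lack of change. Of 37 members tested, 18 had positive and 19 negative fold changes, with a median of -0.03 against -0.0057 over all 13910 genes tested. The background was 0.0%, since edgeR called 0 genes, and DESeq2 called 8 genes (0.0312% of 25620, without edgeR's filter on low counts) and no member. Only Pgd had an unadjusted p under 0.05 in edgeR, as did 2.16% of genes tested, and only Keap1, Pgd and Taldo1 had groups that did not overlap, each lower in ABHD6 OE livers, as 6.74% of genes tested did in either direction. Gpx2 had 0 counts in all 6 livers and was not tested.

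Pgd, the oxidative pentose phosphate dehydrogenase, stood at 48.5, 72.6 and 65.4 CPM in ABHD6 OE livers, against 107, 109 and 78.5 CPM in GFP livers, a log2 fold change of -0.65 (SE 0.19, edgeR unadjusted p = 0.0114, adjusted p = 1.00). All 4 NADPH genes had negative fold changes, from -0.65 to -0.21, and none passed. Keap1 stood at 60.4, 57.5 and 53.0 CPM in ABHD6 OE livers, against 67.1, 65.7 and 63.5 CPM in GFP livers (-0.20, SE 0.10, edgeR adjusted p = 1.00). Nfe2l2 stood at 91.6, 148 and 127 CPM in ABHD6 OE livers, against 164, 125 and 73.9 CPM in GFP livers, with groups that overlapped (0.02, SE 0.31). In the other classes the smallest unadjusted p belonged to Gclm (0.03, SE 0.14), Gpx1 (0.18, SE 0.18), Ugdh (-0.26, SE 0.35), Gstm4 (-0.41, SE 0.33) and Abcc2 (0.06, SE 0.29). With SEs of this size the livers could not show changes as small as those of the cultures. Of the 75 other pathway genes 71 were tested and none passed, the smallest unadjusted p being those of Cth (0.39, SE 0.13), the mitochondrial peroxiredoxin gene Prdx3 (-0.25, SE 0.12) and Ahcy, which splits S-adenosylhomocysteine (0.42, SE 0.21). Whether the responses of cultures and livers differed was not tested.

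Many members varied within each liver group, and in 20 of 37 the same pair of livers was lowest. In ABHD6 OE liver 1 and GFP liver 3, which had the high Saa1, 20 of 37 members had their 2 lowest levels, among them 11 of the 13 transferases, and 1 member, Gstp1, had its 2 highest. Of all genes tested in livers, 16.0% had their 2 lowest and 17.1% their 2 highest levels there. Gsta1 stood at 0, 17.5 and 1.30 CPM in ABHD6 OE livers 1, 2 and 3 and at 3.16, 2.43 and 0.0900 CPM in GFP livers 1, 2 and 3, or 0 to 191 counts. Gstm3, a mu-class transferase, stood at 10.9, 101.6 and 16.7 CPM in ABHD6 OE livers and at 98.2, 73.7 and 12.4 CPM in GFP livers. Abcc3 stood at 222, 524 and 548 CPM in ABHD6 OE livers and at 670.5, 625 and 67.9 CPM in GFP livers.

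Gstp1 was the mirror image, at 990.3, 441 and 426 CPM in ABHD6 OE livers 1, 2 and 3 and at 375, 297 and 1567 CPM in GFP livers 1, 2 and 3. The median transferase, relative to the mean of the 6 livers on a log2(CPM + 1) scale, was at -0.83, 0.59 and -0.17 in ABHD6 OE livers and at 0.42, 0.32 and -0.82 in GFP livers. The highest liver was 56.1 times the lowest for Gsta2, whose counts are uncertain as stated above, 9.88 times for Abcc3, 9.32 times for Gstm3 and 4.54 times for Nqo1. It was only 1.15 times the lowest for Prdx1, 1.19 times for Gclm, 1.27 times for Keap1 and 1.28 times for Mgst1, the microsomal transferase. The subunits Gclc and Gclm thus again differed, with Gclc at 339, 586 and 379.7 CPM in ABHD6 OE livers and 675, 505 and 205 CPM in GFP livers (3.30 times from lowest to highest). The summed stellate cell markers also varied within both groups. The parts of the acute phase state and of cell content in these levels were not tested, and in bulk RNA fewer cells of a type and less RNA per cell cannot be told apart.

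Without both of these livers, an alternative chosen after seeing the data, again 0 of 37 members passed (smallest edgeR adjusted p = 0.629, for Pgd). Pgd was at -0.64 (SE 0.13), Tkt at -0.48 (SE 0.14) and Gsta4 at 0.86 (SE 0.34), the 3 members with an unadjusted p under 0.05, where 4.55% of genes tested had one. Nqo1 was at -0.40 (SE 0.36), against -0.37 (SE 0.58) with all livers, and Gclc at -0.28 (SE 0.24), against -0.08 (SE 0.43) with all livers. Keap1 was at -0.26 (SE 0.12), Gclm at -0.02 (SE 0.15), Gpx1 at 0.14 (SE 0.21), Ugdh at -0.35 (SE 0.29) and Gstm4 at -0.53 (SE 0.22). Nfe2l2, at -0.06 (SE 0.17), and Abcc2, at -0.11 (SE 0.17), changed sign, as did Gclm, Gsr, Gss, Mgst1 and Abcc4. Of the pathway genes, Cth was at 0.32, Prdx3 at -0.21 and Ahcy at 0.53. Gstp1 changed sign as well, to 0.37 (SE 0.16), against -0.26 (SE 0.67) with all livers.

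**Figure D2:**
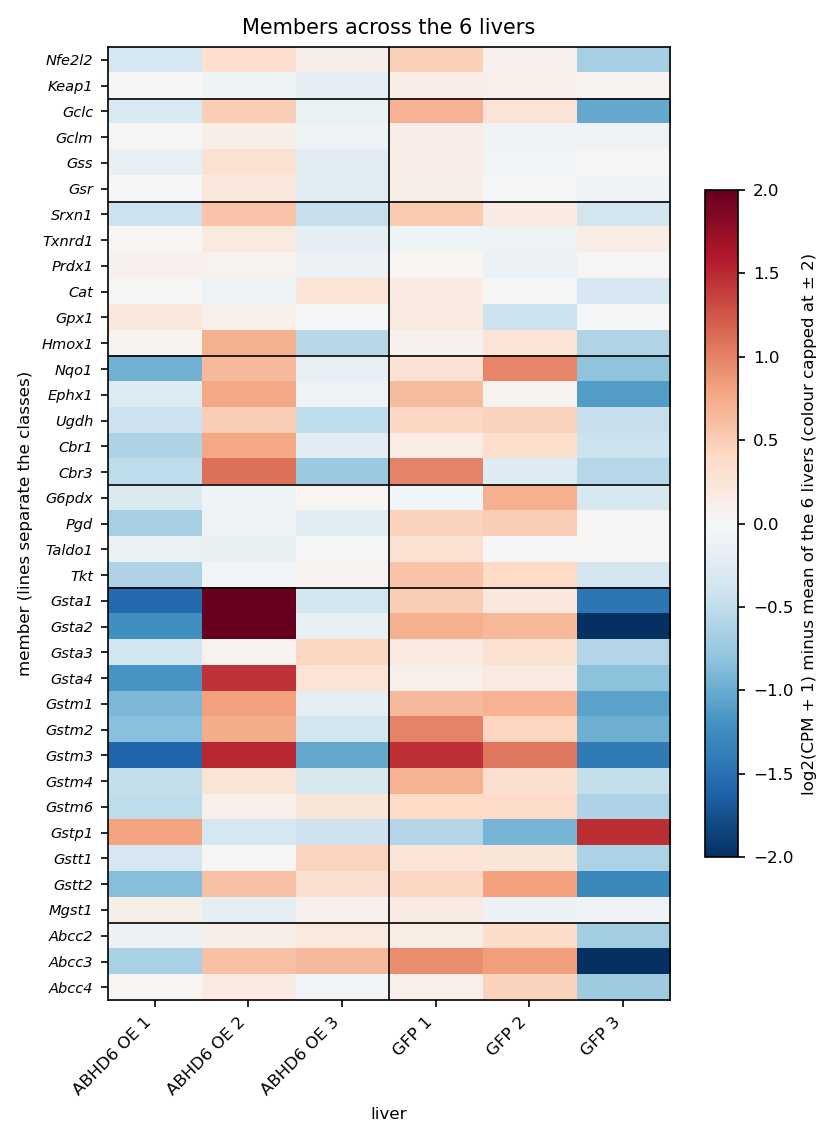
Level of 37 members (rows, grouped by class) in each of the 6 livers (columns, ABHD6 OE left and GFP right), as log2(CPM + 1) minus the mean of the 6 livers, with colours capped at 2 in either direction. ABHD6 OE 1 and GFP 3 are blue across most transferases and red for Gstp1, and ABHD6 OE 2 is the reddest for Gsta1 and Gsta2.

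Between control cultures and control livers most genes differed, and the members did so about as often as all genes. In siScramble hepatocytes NRF2, the thioredoxin and heme defence genes, all NADPH genes, 3 alpha-class transferases and MRP4 were higher than in GFP livers. Catalase, Gsta3, the theta-class transferases, Mgst1, Gstm4, Gstm6 and MRP2 were lower. Tissue and culture, preparation and possibly diet, which is not given for the cultures, differ between these groups and cannot be told apart. Of 38 members 29 passed in edgeR (76.3%), 18 higher and 11 lower, where 70.3% of the 14215 genes tested passed, 33.3% higher and 36.9% lower, so the share of members called lies near that of all genes. Without Gpx2, which has 0 counts in GFP livers and passed the filter only through the cultures, 28 of 37 passed, 17 higher and 11 lower. In 31 members the groups did not overlap, as in 76.6% of genes tested, and 31 had an unadjusted p under 0.05, as did 72.8%. The 5 cholangiocyte markers summed to 676 to 742 CPM in siScramble hepatocytes and 47.9 to 72.3 CPM in GFP livers. Most of this sum was Spp1, at 8635, 8617 and 8593 counts in siScramble hepatocytes and 669, 948 and 1003 counts in GFP livers. Sox9 and Krt19 were also higher in siScramble hepatocytes. Krt7 (8, 4 and 0 counts, against 15, 13 and 6 in GFP livers) and Epcam (2, 4 and 7 counts, against 16, 42 and 4) were not. The 6 sinusoidal endothelium markers summed to 14.4 to 16.3 CPM in siScramble hepatocytes and 130 to 205 CPM in GFP livers. The part of cell content in the differences was not tested. Scaled by library totals alone, the split was 24 higher and 5 lower among members and 8388 higher and 2923 lower among all genes, against 4740 and 5251 with TMM, as the median log2 fold change of all genes moved to 0.80, against -0.03 with TMM. Without GFP liver 3, 22 members were higher and 15 lower, beside 5508 higher and 5823 lower of the 14823 genes tested.

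Among regulators and glutathione genes, Nfe2l2 was at 326 ± 6.56 CPM in siScramble hepatocytes and 121 ± 44.97 CPM in GFP livers (SD, n = 3 each), a log2 fold change of 1.41 (SE 0.27, edgeR adjusted p = 0.00254). Keap1 was lower, at 51.0 ± 1.88 CPM in siScramble hepatocytes and 65.4 ± 1.83 CPM in GFP livers (SD, n = 3 each), a log2 fold change of -0.39 (SE 0.07, edgeR adjusted p = 0.00224) that turned to 0.44 with library totals. Gclc was at 1.10 (SE 0.39, edgeR adjusted p = 0.0371), a call lost without GFP liver 2 (adjusted p = 0.0796) or without any one siScramble hepatocyte (up to 0.0793). Gclm was at -0.46 (SE 0.10, edgeR adjusted p = 0.00538) and turned to 0.36 with library totals. Gsr (1.03, SE 0.09) and Gss (0.61, SE 0.08) were higher, and Gss overlaps Acss2 on the opposite strand, which was lower (-3.54, SE 0.34).

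In thioredoxin, peroxide and heme defence 5 of 7 genes were higher and 2 lower, or 4 higher and 2 lower of 6 without Gpx2. Srxn1 stood at 584, 639 and 645 CPM in siScramble hepatocytes, against 103, 79.6 and 54.8 CPM in GFP livers (2.95, SE 0.23, edgeR adjusted p = 3.86e-05). Hmox1 (2.39, SE 0.22), Txnrd1 (1.5, SE 0.11) and Prdx1 (0.96, SE 0.11) were also higher. Gpx2, which passed the filter only through the cultures, so that its difference was set by the filter, was at least 14.4-fold higher in siScramble hepatocytes, taking 3 counts over the GFP livers as the limit that a count of 0 allows. Cat stood at 1076, 1060.4 and 1087 CPM in siScramble hepatocytes, against 3899, 3457 and 2754 CPM in GFP livers (-1.68, SE 0.16, edgeR adjusted p = 0.000102). Gpx1 was at -0.64 (SE 0.15) and turned to 0.20 with library totals.

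Pgd stood at 536, 574 and 581 CPM in siScramble hepatocytes, against 107, 109 and 78.5 CPM in GFP livers (2.5, SE 0.15, edgeR adjusted p = 1.23e-05). G6pdx (2.33, SE 0.28), Tkt (0.70, SE 0.23) and Taldo1 (0.44, SE 0.11) were higher too. Ikbkg, which overlaps G6pdx on the opposite strand, was also higher here (1.30, SE 0.12, edgeR adjusted p = 7.78e-05). As the strand used in counting is not given, its part in the G6pdx counts is not known. The call of Tkt was lost without GFP liver 2 or any one siScramble hepatocyte (adjusted p = 0.0505 to 0.0680). Of the quinone, epoxide and carbonyl genes only Cbr3 passed, at 28.6, 30.2 and 31.5 CPM in siScramble hepatocytes, against 3.55, 0.922 and 0.540 CPM in GFP livers (4.11, SE 0.52, edgeR adjusted p = 0.000341). Nqo1 did not pass (0.40, SE 0.42) and overlapped, at 13.9, 15.8 and 15.9 CPM in siScramble hepatocytes, against 10.97, 18.2 and 4.59 CPM in GFP livers. With library totals Nqo1 passed at 1.20 (adjusted p = 0.0443), as did Ephx1 at 1.78 (adjusted p = 0.00685) and Ugdh at 1.39 (adjusted p = 0.00294). With TMM Ephx1 (0.98, SE 0.39, edgeR adjusted p = 0.0551) and Ugdh (0.58, SE 0.24, edgeR adjusted p = 0.0617) did not pass and did so without GFP liver 3 (0.65, adjusted p = 0.0014, and 0.35, adjusted p = 0.00076).

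The 13 transferases went both ways, with 3 higher and 6 lower. Gsta1 stood at 172, 176 and 182 CPM in siScramble hepatocytes, against 3.16, 2.43 and 0.0900 CPM in GFP livers (6.48, SE 0.61, edgeR adjusted p = 8.7e-05), and Gsta2 (3.36, SE 0.68) and Gsta4 (2.52, SE 0.26) were higher with it. Gsta3, of the same alpha class, stood at 205, 200.2 and 209 CPM in siScramble hepatocytes, against 2126, 2317 and 1249 CPM in GFP livers (-3.24, SE 0.25, edgeR adjusted p = 3.53e-05). Per kilobase, Gsta1 was at 185 and Gsta3 at 47.1 CPM in siScramble hepatocytes, against 1.98 for Gsta1 and 437 for Gsta3 in GFP livers, with the counts of Gsta1 uncertain as stated above. Mgst1 (-2.63, SE 0.14), Gstm6 (-1.73, SE 0.26), Gstt1 (-1.57, SE 0.24), Gstt2 (-1.61, SE 0.48) and Gstm4 (-1.23, SE 0.28) were lower, and the calls of Gstt2 and Gstm4 were lost with library totals (adjusted p = 0.174 and 0.240). Gstt2, whose groups overlapped, also lost its call without GFP liver 1, GFP liver 2 or any one siScramble hepatocyte (edgeR adjusted p = 0.0555 to 0.0721). Gstm1, Gstm2, Gstm3 and Gstp1 did not pass, and all 4 passed without GFP liver 3, with Gstp1 at 1.55 (adjusted p = 2.94e-07) and Gstm1 at -0.75 (adjusted p = 1.41e-06).

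Of the pumps 1 was higher and 1 lower. Abcc4, encoding the basolateral pump MRP4, stood at 107, 109 and 128 CPM in siScramble hepatocytes, against 2.53, 3.52 and 0.9904 CPM in GFP livers (5.57, SE 0.34, edgeR adjusted p = 1.09e-05). Abcc2 stood at 497.5, 503 and 509.99 CPM in siScramble hepatocytes, against 1347, 1573 and 749 CPM in GFP livers (-1.31, SE 0.26, edgeR adjusted p = 0.00347), a call lost with library totals (adjusted p = 0.160). Abcc3 did not pass (-0.54, SE 0.70) and did without GFP liver 3 (-1.04, adjusted p = 3.17e-07).

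**Figure D3:**
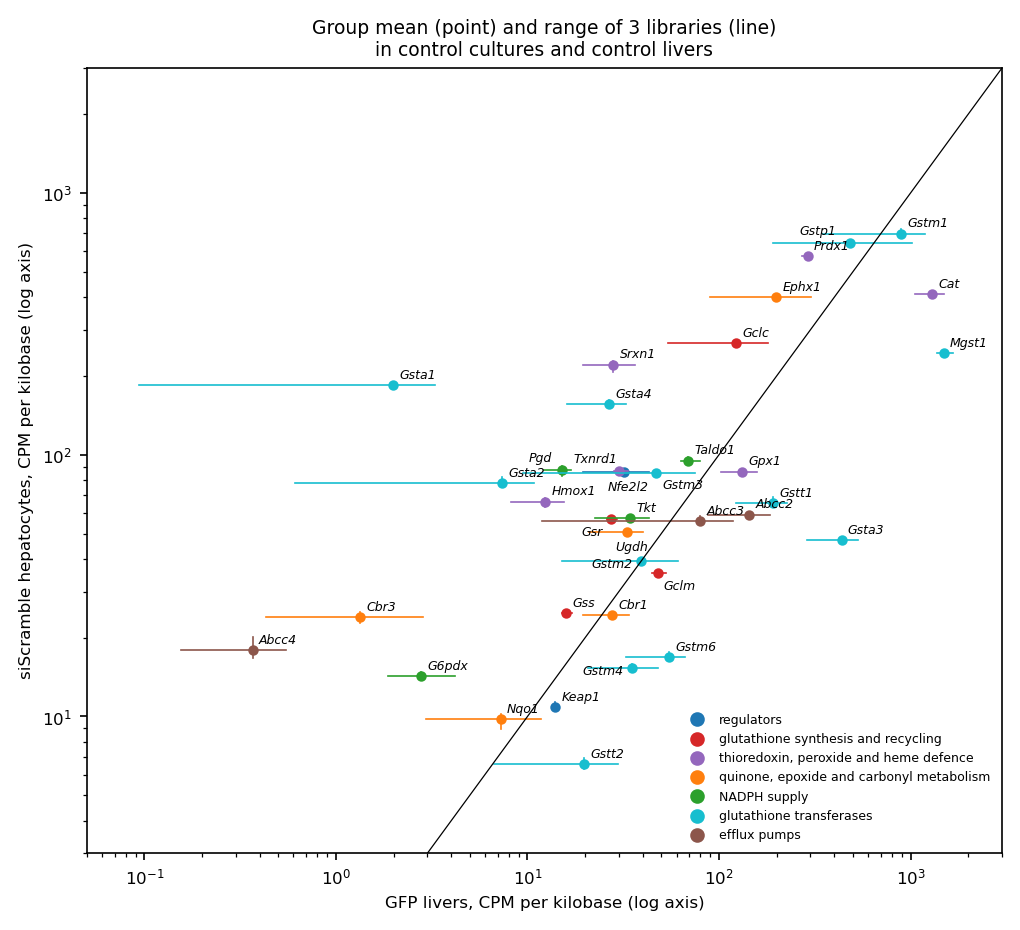
Mean CPM per kilobase of 37 members in siScramble hepatocytes (y axis) against GFP livers (x axis), on log axes, with lines for the range of the 3 libraries and a diagonal of equal level. Gsta1, Abcc4 and Cbr3 lie farthest above the diagonal and Gsta3, Mgst1 and Cat lie below it. Of the members that passed with either scaling, Keap1, Gclm, Gpx1 and Cbr1 lie below it here and change side with library totals. Gstm1, Gstm2 and Abcc3 also lie below it, passed with neither scaling, and their side with library totals is not given.

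Ordered by CPM per kilobase, Gstm1 led in both culture groups, at 769 in siABHD6 and 699 in siScramble hepatocytes, with Prdx1 and Gstp1 next. Prdx1, at 662 in siABHD6 and 574 in siScramble hepatocytes, was above Gstp1 in siABHD6 hepatocytes and below it in siScramble hepatocytes, where Gstp1 was at 577 in siABHD6 and 644 in siScramble hepatocytes. Gclc was the fourth member in siABHD6 hepatocytes, at 422 against 267 in siScramble hepatocytes. Mgst1 led in livers, at 1502 in ABHD6 OE and 1488 in GFP livers, with Cat next at 1401.5 in ABHD6 OE and 1289.7 in GFP livers. Nqo1 was low everywhere, at 12.2 in siABHD6 hepatocytes, 9.79 in siScramble hepatocytes, 5.59 in ABHD6 OE livers and 7.25 in GFP livers. In the cultures the highest of 6 libraries was 1.05 (Mgst1) to 1.77 (Gclc) times the lowest for every member but Gpx2 (2.34 times).

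**Figure D4:**
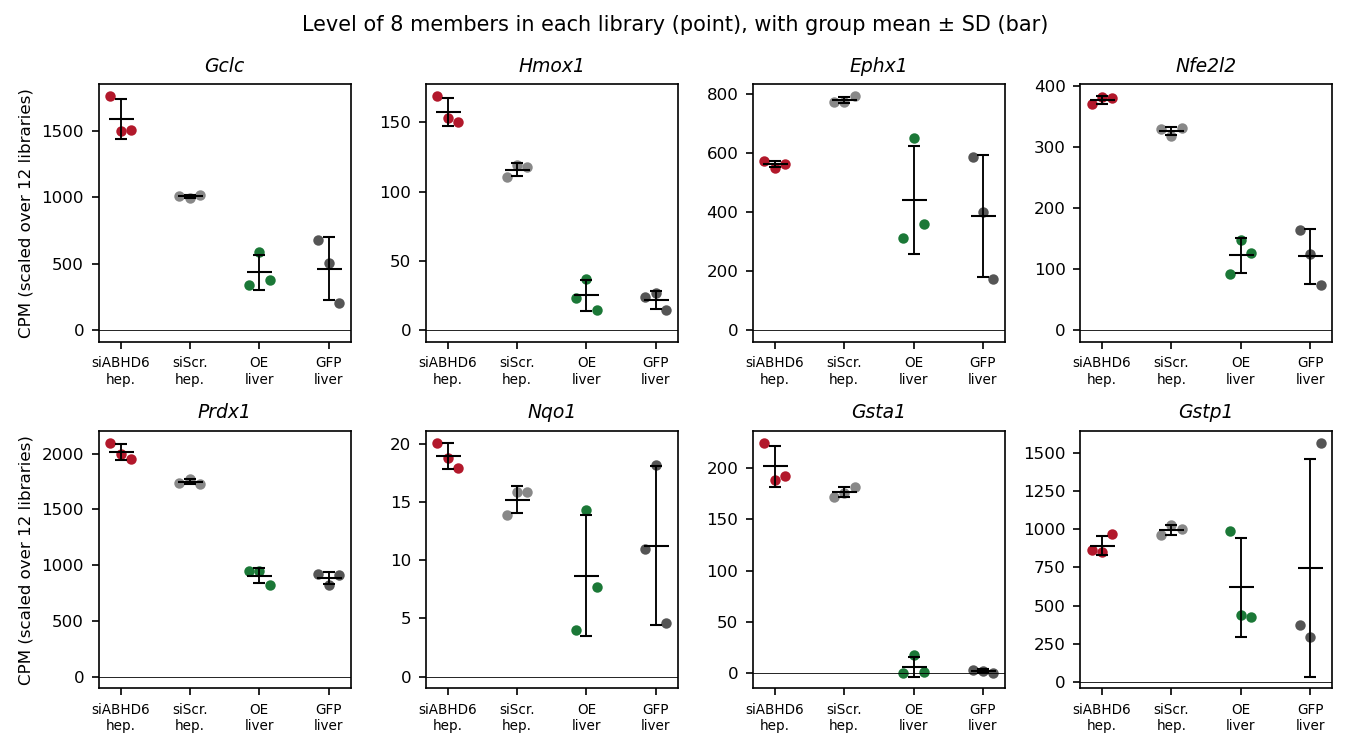
CPM of 8 members (panels, y axis from 0) in each library, with group means and SDs as bars, for siABHD6 and siScramble hepatocytes and ABHD6 OE and GFP livers from left to right. In the cultures Gclc, Hmox1, Nfe2l2, Prdx1, Nqo1 and Gsta1 are separated upward and Ephx1 downward, Gstp1 overlaps, and in the livers all 8 overlap.

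Of the 75 other pathway genes, 71 were tested between siScramble hepatocytes and GFP livers, and 17 were higher and 38 lower (77.5%, median -0.47), where 70.3% of all genes passed, or 33 higher and 23 lower with library totals. Slc7a11, Sod3 and Ggt5 had 0 counts in one group and passed the filter only through the other, so that their differences were set by the filter, and without them 16 genes were higher and 36 lower of 68. The cystine importer gene Slc7a11 had 0 counts in GFP livers and was at least 2170-fold higher in siScramble hepatocytes. Abcc1, encoding the pump MRP1 (3.67, SE 0.28), Slc3a2 (2.62, SE 0.08) and the heme transporter gene Slc48a1 (2.55, SE 0.14) followed. Extracellular superoxide dismutase, Sod3, and Ggt5, a glutathione-cleaving transpeptidase, had 0 counts in siScramble hepatocytes and were at least 590-fold and at least 66.9-fold lower there than in GFP livers, on the same limit of 3 counts over the group. Gnmt and Mat1a, which use and make S-adenosylmethionine, were at -7.37 (SE 0.21) and -6.86 (SE 0.19).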

How the data were processed

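RNA sequencing of 12 libraries was analysed from the authors' deposited table of raw counts per gene, and HISAT2, DESeq2 and mm39 are named, without versions, per the submitters' processing notes. The counting program, annotation release and strand setting are not given in the sources used here. The members, the pathway list and the comparisons were chosen with earlier results of these data known. The 3 comparisons (siABHD6 over siScramble hepatocytes, ABHD6 OE over GFP livers, siScramble hepatocytes over GFP livers) were each fitted on their 6 libraries in edgeR 4.0.16 (R 4.3.3) with filterByExpr (minimum count 10), TMM and the quasi-likelihood F test, and p-values were adjusted by Benjamini-Hochberg across every gene tested. The comparison of cultures with livers shares control libraries with both others. SEs are the absolute log2 fold change over the square root of F. CPM uses TMM over all 12 libraries, which differs from each comparison's own scaling by at most 0.0256 on the log2 scale. Beside Abhd6, values per library are given for Nfe2l2, Keap1, Nqo1, Gclc, Gclm and, by class and comparison, the called members with the largest change in each direction, or with no call the smallest p; pathway genes follow the 4 largest changes each way, or in livers the 3 smallest p. Other values are named after they were seen. Alternatives were RLE, no filter, DESeq2 1.42.0, all 12 libraries, a replicate block, library totals and leaving out libraries. The fits were tested on simulated counts. Deviations of libraries with equal replicate numbers correlated at -0.0108 to -0.00356 in hepatocytes and at -0.414, 0.434 and -0.133 in livers. As 1 of these 6 pairs had a positive correlation, the numbers were not taken as pairs. Promoters are from RefSeq (GRCm38.p6) and shared 50-base words from GENCODE M21 transcripts.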

Additional observations from a re-analysis of the deposited data

How the results depend on the processing

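With a single fit over all 12 libraries the hepatocyte calls fell to 41 genes, 0 members and 1 pathway gene, against 2075, 15 and 19. In livers, where 0 genes passed, 2 passed with no filter on low counts, 8 in DESeq2, 4 in the single fit and 1 without both livers with high acute phase genes, none of them a member or a pathway gene. With library totals in place of TMM, 4 of the members that passed with either scaling changed sign between siScramble hepatocytes and GFP livers. These were Keap1 (0.44), Gclm (0.36), Gpx1 (0.20) and Cbr1 (0.61). Sign changes of members that passed with neither scaling are not counted here. Under the other settings (RLE, no filter, DESeq2) 14 to 18 members were called in hepatocytes and 29 to 31 between cultures and livers. Leaving out single libraries gave 10 to 16 members and 1468 to 1873 genes in hepatocytes, 0 of both in livers, and 26 to 37 members and 9127 to 11331 genes between cultures and livers. The replicate block gave 2124 genes and 17 members in hepatocytes, 0 and 0 in livers and 9384 and 31 between cultures and livers, so that Gsta2 and Gstm1 passed in hepatocytes (adjusted p = 0.0463 and 0.0226) and Ephx1 and Ugdh between cultures and livers (0.0273 and 0.0346). The cause of these differences was not tested. Members with few counts, such as Gpx2, Gsta1 in livers and Cbr3 in livers, are limited by depth.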

Other observations

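Values of genes close in sequence to the transferases are given with the limit that reads may be split between copies. Gstp3, of the pi class, was at 85.5 ± 4.88 CPM in siABHD6 and 85.7 ± 2.04 CPM in siScramble hepatocytes (SD, n = 3 each; log2 fold change -0.02, SE 0.05), where Gstp1 fell and Gstp2 rose. In livers Gstp2, like Gstp1, was highest in ABHD6 OE liver 1 and GFP liver 3, at 22.1, 2.48 and 1.39 CPM in ABHD6 OE livers 1, 2 and 3 and at 1.18, 2.68 and 6.84 CPM in GFP livers 1, 2 and 3, and as Gstp1 shares 51.0% of its 50-base words with Gstp2, these are not separate results. Gm3776, the near copy of Gsta1, was at 58.4 ± 2.20 CPM in siABHD6 and 58.6 ± 3.74 CPM in siScramble hepatocytes (SD, n = 3 each), while Gsta1, which shares 82.9% of its words with it, rose. Osgin1, an oxidative stress response gene, was highest in the 2 livers with the lowest transferase medians and also high in ABHD6 OE liver 2, which had the highest, at 287, 249 and 107 CPM in ABHD6 OE livers 1, 2 and 3 and at 96.1, 98.1 and 431 CPM in GFP livers 1, 2 and 3.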
